A study of Mus musculus with 18 samples.

Results

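The genes described here encode the extracellular side of the Wnt pathway: the Wnt ligands, the Frizzled receptors, the co-receptors Lrp5 and Lrp6, and the secreted antagonists of the Dkk and Sfrp families with Wif1 and Frzb. Members were the genes whose symbol in the array annotation begins with Wnt, Fzd, Dkk or Sfrp followed by a digit, plus Lrp5, Lrp6, Wif1 and Frzb. Each gene was read from whichever of its probe sets had the highest mean. The rule gave 41 of the 17903 genes with a probe set of their own: 18 ligands, 10 Frizzled receptors, 2 co-receptors, 10 secreted antagonists and Fzd10os, an opposite strand transcript that matches the rule by its symbol and is not a receptor.

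A Wnt ligand binds a Frizzled receptor together with Lrp5 or Lrp6, and the receptor complex then stops the breakdown of beta-catenin, which enters the nucleus and acts with Tcf and Lef proteins. Some ligands, Wnt5a being the best known, can also signal without beta-catenin. Sfrp proteins, Frzb and Wif1 bind Wnt ligands outside the cell, whereas Dkk1, Dkk2 and Dkk4 bind the Lrp co-receptors. In mouse ES cells beta-catenin signalling supports self-renewal, and Tcf3 (now named Tcf7l1) represses many of its targets.

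RNA was measured on 18 Affymetrix arrays of mouse cells during reprogramming to induced pluripotent stem cells (iPSC). A partial iPSC clone, Tcf3 wt and made with OCK (Oct4, c-Myc and Klf4), had received siRNA against Tcf3 (siTcf3-A and siTcf3-B, 1 array each) or control siRNA (siCtrl, 1 array) and was collected on day 2 of the treatment. The established iPSC were 2 OCK clones with Tcf3 knocked out (ko), 2 OSK (Oct4, Sox2 and Klf4) ko clones and 1 OSK Tcf3 wt sample. OCK reprogramming cultures of Tcf3 ko and of Tcf3 wt cells gave 1 array each on days 11, 15, 19, 22 and 26. All partial arrays come from a single clone, and established OCK wt cells were not analysed here. The labels number the ko clones 1 and 2, so the spread between these arrays includes differences between clones. No label says whether siTcf3-A and siTcf3-B, or the days of a genotype, stand for separate cultures. The part of the spread behind the p-values that comes from those arrays may be technical.

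Values are log2 RMA signal, and the lowest value on every array, 5.64, is a floor that stands for any lower level. Between 12102 and 12499 genes were above it on an array. The targeted gene itself, Tcf7l1, had 9.49 and 9.37 in OSK ko clones, against 10.68 in OSK wt, and 8.80 (siTcf3-A) and 8.77 (siTcf3-B), against 9.93 with siCtrl. In the ko cultures it lay between 8.10 and 9.48, against 9.06 to 9.90 in the wt cultures. The position of its probes against the deletion is unknown here, and a probe outside the deletion checks nothing. All 8 listed pluripotency markers were above the floor on every established array, whereas Zfp42 was at the floor on all 3 partial arrays and Esrrb on 2 of them. The summed linear signal of the 7 listed fibroblast markers was 15449 to 19038 on the partial arrays, 6527 to 8442 on the established arrays and 49803 to 92527 in the cultures; all 7 were above the floor in cultures and partial clone, while Pdgfrb and Twist2 were at it on 1 established array each. The sum of the pluripotency markers was 10293 to 10719 on the partial arrays, 56466 to 71917 on the established arrays and 1761 to 16807 in the cultures.

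Of the 41 members, 36 were above the floor on at least 1 array and 20 on all 18. The ligands Wnt1, Wnt2b and Wnt8b and the antagonists Dkk1 and Dkk4 were at the floor on every array. These 5 are 12.2% of the members, against 20.5% of all genes. Above the floor on all 18 arrays were 9 of 10 Frizzled receptors, 6 of 18 ligands and 4 of 10 antagonists, beside 48.8% of all members and 57.4% of all genes; differences between roles were not tested. The mean was highest in the cultures for 20 of the 36 members, in the partial clone for 7 and in the established iPSC for 9. Over the 14228 genes above the floor somewhere, the cultures were highest for 30.6%, the partial clone for 26.1% and the established iPSC for 43.3%.

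**Figure D1:**
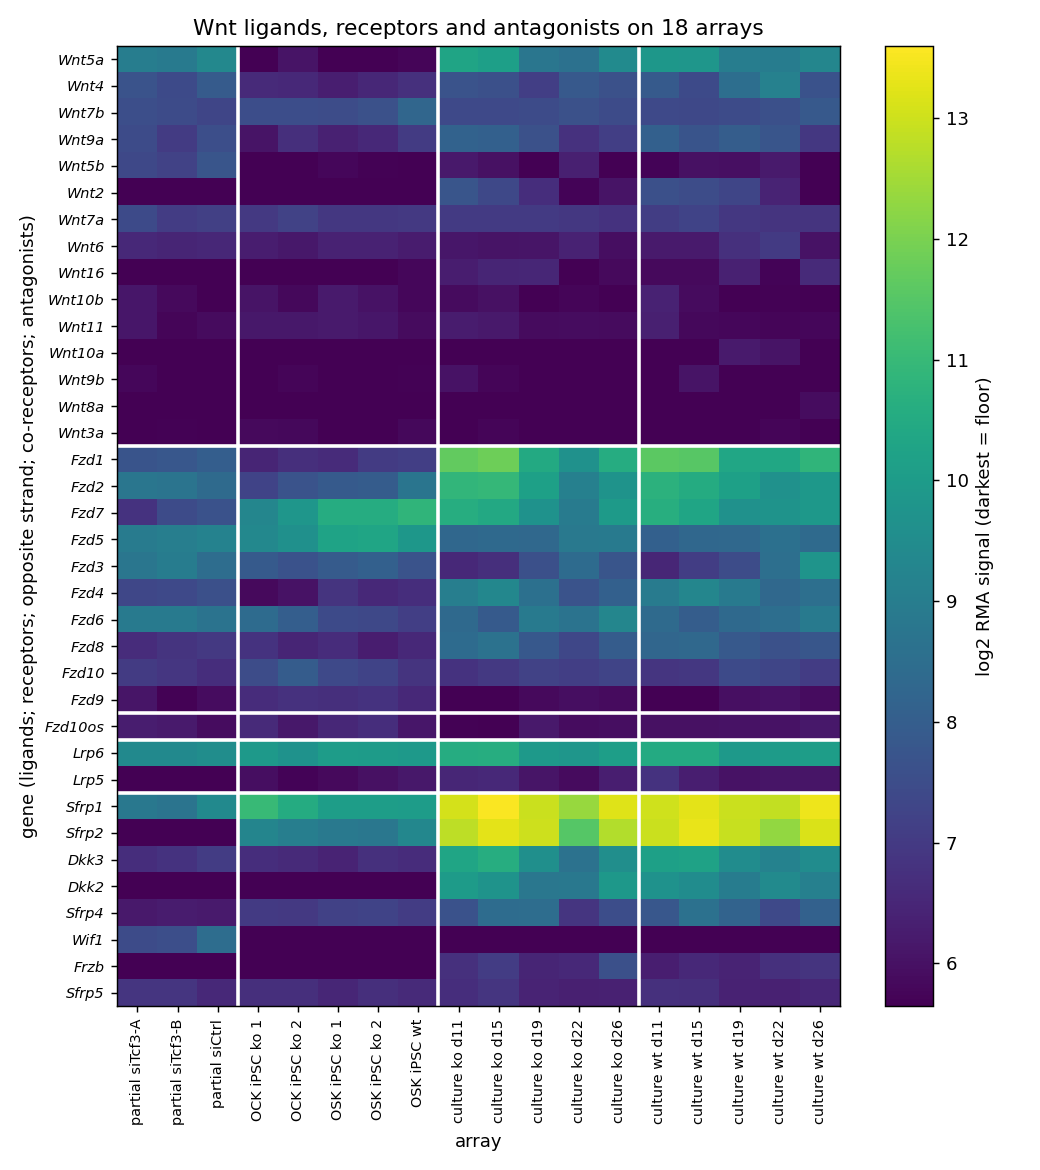
Log2 RMA signal (colour) of the 36 members above the floor on at least 1 array, with genes as rows grouped by role and the 18 arrays as columns, partial clone first, then established iPSC, ko cultures and wt cultures. Dkk2, Frzb and Wnt2 are above the floor on all 10 culture arrays and at the floor on the 8 clone arrays, and Wif1 is above it on the 3 partial arrays alone.

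Among the ligands, Wnt5a separated the established iPSC from both other states. Wnt5a had 9.01 (siTcf3-A), 8.88 (siTcf3-B) and 9.35 (siCtrl) in the partial clone, and 5.64 and 6.07 in OCK ko, 5.64 and 5.64 in OSK ko and 5.74 in OSK wt iPSC. In the cultures it ranged from 8.61 through a median of 9.38 to 10.29, so the established arrays did not overlap with either other state. Its signal was higher in the partial clone than in the established iPSC by 3.40 ± 0.12 (log2, SE; limma adjusted p = 4.27e-06). In this comparison the groups within a state counted equally, and 27.4% of all genes tested were higher in the partial clone and 37.3% lower. Of the 32 members tested, 12 were higher and 10 lower, with a median difference of 0.0069 (all genes tested: -0.058). Against the cultures of days 11 and 15, Wnt5a fell by 4.28 ± 0.16 in the established iPSC (limma adjusted p = 1.17e-13). Of all genes tested there, 41.0% were higher in the established iPSC and 33.0% lower. Of the 33 members tested, 5 were higher and 17 lower, with a median of -0.49 (all genes tested: 0.085). Marker sums of several cell types were also lower on all established arrays than in the early cultures, and their part in the fall of the 17 members was not tested. The fibroblast sum was 6527 to 8442 on established arrays, against 89409 to 92527 in early cultures, and the macrophage sum (4 markers) was 306 to 476, against 1927 to 3460. Within the macrophage list Cd68 did not fall (7.22 to 8.27 on established arrays, against 7.22 to 7.65). The keratinocyte sum (4 markers) was 213 to 244, against 726 to 3587, although Krt5 in that list overlapped (5.96 to 6.30, against 6.08 to 6.35). All 3 adipocyte markers were at the floor on established arrays (sum 150), against a sum of 4000 to 16222 in early cultures. The partial clone (OCK, wt) and the established iPSC also differ in factors, genotype and siRNA, and these cannot be told apart from the state. In these bulk samples fewer cells of a type and less RNA per cell cannot be told apart.

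Wnt5b, the closest relative of Wnt5a, had 7.37 (siTcf3-A), 7.20 (siTcf3-B) and 7.74 (siCtrl) in the partial clone. It had 5.64 and 5.64 in OCK ko, 5.78 and 5.68 in OSK ko and 5.64 in OSK wt iPSC, and ranged from 5.64 through 5.99 to 6.36 in the cultures. Every partial array thus lay above all 15 others, and the difference between partial and established cells was 1.84 ± 0.087 (limma adjusted p = 1.25e-05). Wnt4, a ligand of gonad and kidney development, had 7.67, 7.44 and 7.92 in the partial clone (siTcf3-A, siTcf3-B, siCtrl), against 6.59 and 6.58 (OCK ko), 6.32 and 6.52 (OSK ko) and 6.74 (OSK wt) in the established iPSC. Wnt4 was 1.15 ± 0.091 higher in the partial clone than in the established iPSC (limma adjusted p = 8.95e-05), and ranged from 7.12 through 7.67 to 9.14 in the cultures. Wnt9a had 7.46, 7.03 and 7.56 in the partial clone and 6.06, 6.73, 6.39, 6.56 and 7.01 in the established clones in the same order. It was 0.78 ± 0.19 higher in the partial clone (limma adjusted p = 0.0124), where the lowest array exceeded the highest established array by little. The cultures ranged from 6.77 through 7.73 to 8.15. Both ligands were lower in the established iPSC than in early cultures, Wnt9a with a difference of -1.46 ± 0.23 (limma adjusted p = 1.3e-05) and Wnt4 with one of -1.10 ± 0.28 (limma adjusted p = 0.00171).

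Wnt2, a mesenchymal ligand known from lung development, was read only in the cultures. It had 7.73, 7.38, 6.70, 5.72 and 6.05 in ko cultures and 7.60, 7.51, 7.30, 6.42 and 5.66 in wt cultures on days 11, 15, 19, 22 and 26, and was at the floor on all 8 clone arrays. It was at least 3.76-fold lower in the established iPSC than in the cultures of days 11 and 15 (limma adjusted p = 6.24e-07). Wnt2, Dkk2 and Frzb were the 3 members above the floor on all 10 culture arrays and at it on all 8 clone arrays, a pattern shown by 0.860% of all genes.

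The other ligands changed less. Wnt7b, known from lung and placenta, had 7.55 (siTcf3-A), 7.47 (siTcf3-B) and 7.31 (siCtrl) in the partial clone. The established clones had 7.51 and 7.53 (OCK ko), 7.49 and 7.63 (OSK ko) and 8.26 (OSK wt). The single OSK wt array stood above the other 4, which overlapped with the partial arrays. With OSK wt counted as a group of its own, the partial clone differed from the established iPSC by -0.37 ± 0.071 (limma adjusted p = 0.00417). On the other Wnt7b probe set, near the floor, OSK wt (5.71) did not stand out (siTcf3-A 5.86, OSK ko clone 1 5.78). Wnt6 had 6.57, 6.48 and 6.52 in the partial clone, against 6.29, 6.17, 6.41, 6.40 and 6.25 in the established clones in the same order. The difference of 0.23 ± 0.071 passed (limma adjusted p = 0.0274), and the 2 states did not overlap. Wnt16 was at the floor in the partial clone and on 4 of 5 established arrays, with 5.80 in OSK wt, and ranged from 5.65 through 6.07 to 6.60 in the cultures. Its difference between established iPSC and early cultures, -0.44 ± 0.18 (limma adjusted p = 0.0365), was lost when any 1 of the 4 ko clones or of the 2 early ko cultures was left out, and with the plain limma prior.

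Wnt10b and Wnt11, both known for activity through beta-catenin in some tissues, stayed close to the floor, between 5.64 and 6.39 and between 5.75 and 6.35 over the 18 arrays. Wnt7a lay between 6.80 and 7.45 and passed in no comparison. Wnt3a, a ligand commonly used to activate beta-catenin in ES cell culture, never exceeded 5.84, and Wnt9b never exceeded 6.06. Wnt8a was above the floor only in the wt culture of day 26 (5.91). Wnt10a was above the floor in the wt cultures of days 19 (6.22) and 22 (6.06), and in the partial clone it had 5.66 with siTcf3-B and 5.67 with siCtrl.

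Frizzled receptors were detected in every state, but different members were high in each. Fzd1 and Fzd2 were highest in the cultures. Fzd1 had 7.70 (siTcf3-A), 7.79 (siTcf3-B) and 8.01 (siCtrl) in the partial clone, 6.48 and 6.70 in OCK ko, 6.64 and 7.01 in OSK ko and 7.12 in OSK wt iPSC, and ranged from 9.66 through 10.70 to 11.84 in the cultures. The 3 states of Fzd1 did not overlap on this probe set. Fzd1 fell by 4.87 ± 0.18 in the established iPSC relative to early cultures (limma adjusted p = 1.1e-13). It was 1.03 ± 0.12 higher in the partial clone than in the established iPSC (limma adjusted p = 0.000404). The other Fzd1 probe set was above the floor only in the cultures of days 11 and 15 (5.87 to 6.12). Fzd2 had 8.77, 8.70 and 8.41 in the partial clone, 7.25, 7.69, 7.91, 7.96 and 8.75 in the established clones in the same order, and 9.09 through 10.17 to 10.93 in the cultures. The cultures lay above all clones, while the OSK wt value lay among those of the partial clone (partial minus established 0.52 ± 0.12, limma adjusted p = 0.00842). On the other Fzd2 probe set the partial clone (8.31 to 8.58) lay above the established clones (6.06 to 7.42, the highest being OSK wt). Fzd2 fell by 2.85 ± 0.24 in the established iPSC relative to early cultures (limma adjusted p = 3.64e-09).

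Fzd4, known as a receptor for the ligand Norrin in retinal vessels, and Fzd8 were also highest in the cultures. Fzd4 had 7.33, 7.41 and 7.60 in the partial clone, against 5.86, 6.02, 6.85, 6.55 and 6.68 in the established clones, and 7.69 through 8.73 to 9.34 in the cultures. Its 3 states did not overlap, with a difference of 1.04 ± 0.099 between partial and established cells (limma adjusted p = 0.000194) and of -2.76 ± 0.22 between established cells and early cultures (limma adjusted p = 1.78e-09). On another Fzd4 probe set the partial clone (6.36, 6.69 and 7.26) overlapped with the cultures (5.81 to 8.39). It lay above the established clones there (5.64 to 5.80). Fzd8 had 6.65, 6.83 and 6.96 in the partial clone, 6.79, 6.46, 6.64, 6.28 and 6.57 in the established clones, and 7.34 through 7.91 to 8.65 in the cultures. Fzd8 fell by 1.88 ± 0.13 in the established iPSC relative to early cultures (limma adjusted p = 1.9e-10), while the partial and established arrays overlapped (difference 0.30 ± 0.13, limma adjusted p = 0.0943).

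Fzd5 and Fzd7 were high in the established iPSC. Fzd5, known from yolk sac and gut, had 8.95 (siTcf3-A), 9.05 (siTcf3-B) and 9.18 (siCtrl) in the partial clone, 9.35 and 9.65 in OCK ko, 10.27 and 10.32 in OSK ko and 9.84 in OSK wt iPSC, and 8.09 through 8.35 to 8.88 in the cultures. The states followed each other without overlap, and Fzd5 fell by 0.79 ± 0.094 in the partial clone relative to the established iPSC (limma adjusted p = 0.000527) and was 1.62 ± 0.17 higher in the established iPSC than in early cultures (limma adjusted p = 9.54e-08). Fzd7, a receptor known from human ES cells, had 6.81, 7.47 and 7.66 in the partial clone, 9.28, 9.83, 10.58, 10.58 and 10.86 in the established clones, and 8.95 through 9.92 to 10.65 in the cultures. The 3 partial arrays lay below the other 15, with a difference of -2.93 ± 0.20 to the established iPSC (limma adjusted p = 5.11e-05). Established and culture arrays of Fzd7 overlapped. Another Fzd7 probe set stayed between 5.69 and 6.58 on all 18 arrays and showed no such fall, so the result rests on a single probe set.

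Fzd9 and Fzd10 moved over a narrow range. Fzd9 had 6.10, 5.68 and 5.89 in the partial clone, 6.67, 6.77, 6.73, 6.82 and 6.57 in the established clones, and 5.64 through 5.86 to 6.04 in the cultures. All 5 established arrays lay above the others, by 1.06 ± 0.11 against early cultures (limma adjusted p = 4.53e-08), and the partial clone differed from the established iPSC by -0.79 ± 0.12 (limma adjusted p = 0.00132). Fzd10 had 7.02, 6.90 and 6.67 in the partial clone, 7.49, 7.96, 7.41, 7.25 and 6.84 in the established clones, and 6.81 through 7.10 to 7.43 in the cultures. Fzd10 overlapped between the states even though the partial clone differed from the established iPSC by -0.48 ± 0.13 (limma adjusted p = 0.017). Its opposite strand transcript Fzd10os had 6.29, 6.22 and 5.91 in the partial clone, 6.60, 6.16, 6.53, 6.69 and 6.13 in the established clones, and 5.64 through 6.01 to 6.18 in the cultures. Both Fzd10os (0.59 ± 0.13, limma adjusted p = 0.000377) and Fzd10 (0.49 ± 0.15, limma adjusted p = 0.0073) were higher in the established iPSC than in early cultures.

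Fzd3 and Fzd6, receptors known for planar cell polarity in neural tube and hair follicle, had their highest state mean in the partial clone, although the highest single array of each was a culture of day 26. Fzd3 had 8.77, 8.98 and 8.48 in the partial clone and 7.89, 7.64, 7.93, 8.08 and 7.67 in the established clones, a difference of 0.86 ± 0.10 without overlap (limma adjusted p = 0.000467). In the cultures it ranged from 6.50 through 7.54 to 9.77, the widest range of a Frizzled receptor within that state, and it was 1.12 ± 0.33 higher in the established iPSC than in early cultures (limma adjusted p = 0.00496). On the next Fzd3 probe set the partial clone (7.35 to 7.81) overlapped with the established clones (6.57 to 7.72). There the wt culture of day 26 had 6.72, below all partial arrays. A further probe set overlapped too (partial 6.03 to 6.56, established 5.84 to 6.41). Fzd6 had 8.89, 8.88 and 8.68 in the partial clone, 8.41, 8.03, 7.43, 7.38 and 7.13 in the established clones, and 7.90 through 8.46 to 9.30 in the cultures. Fzd6 was 1.20 ± 0.11 higher in the partial clone than in the established iPSC (limma adjusted p = 0.000141), and the cultures overlapped both.

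**Figure D2:**
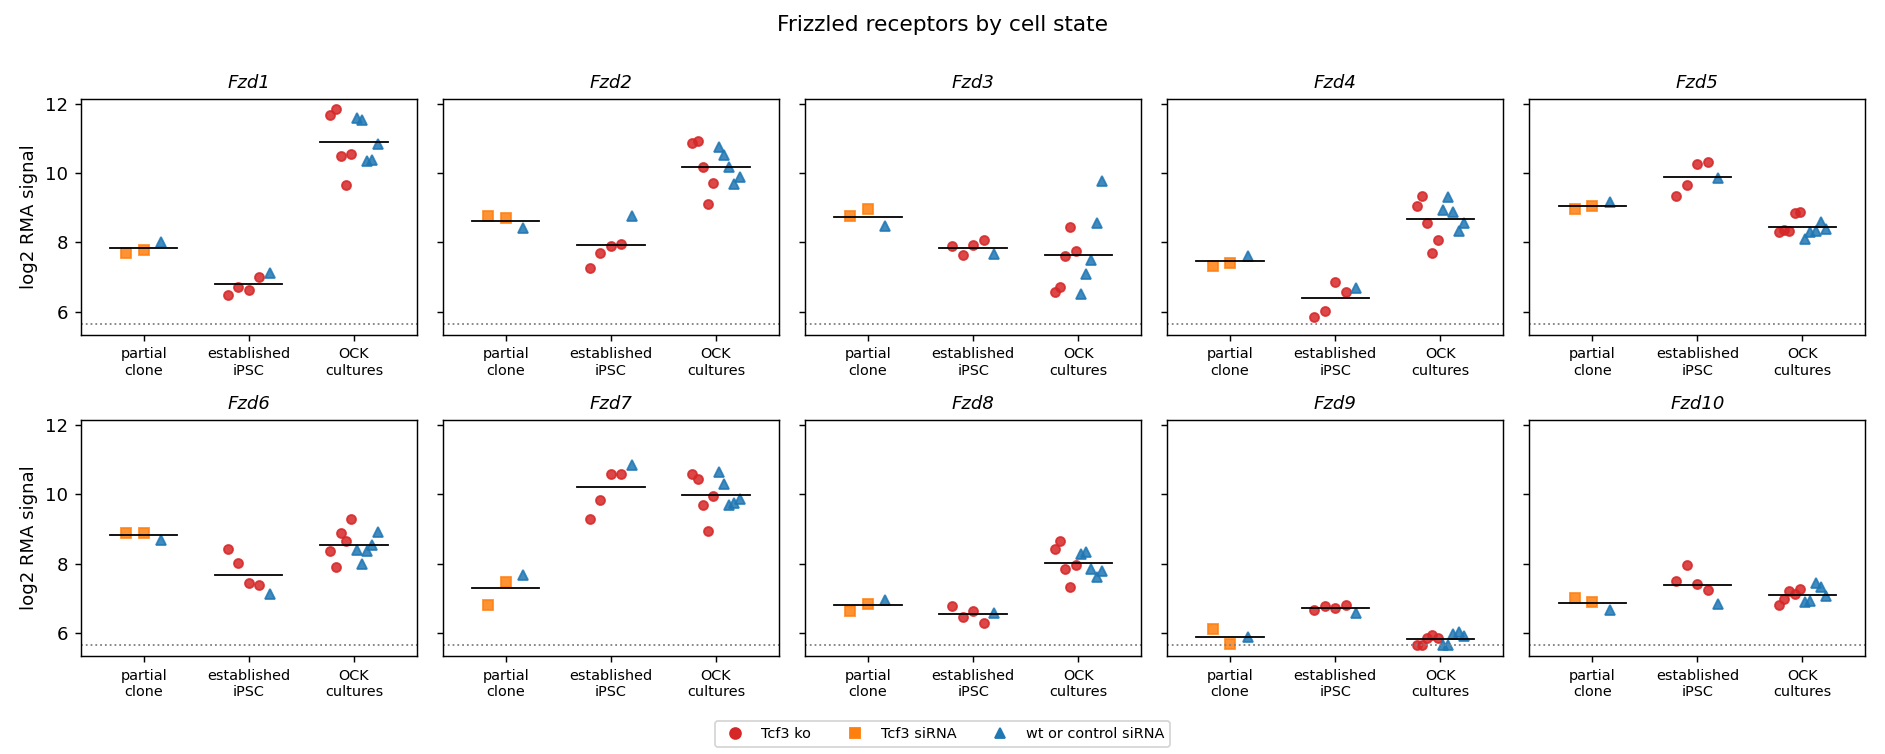
Log2 RMA signal (y axis) of the 10 Frizzled receptors on each array, by state (x axis), with a line at the mean of the state and a dotted line at the floor of 5.64. Fzd7 is lowest in the partial clone (6.81 to 7.66), while Fzd1, Fzd2, Fzd4 and Fzd8 are highest in the cultures.

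The windows of 250 bases before the start of a gene were searched for 2 short forms of the Tcf/Lef binding motif, CTTTGAT and CTTTGTT, on both strands. Sequences came from RefSeq (build GRCm38.p6), and 26 of the 41 members matched by symbol, with 29 windows. CTTTGAT was in 3.21% of all 32851 windows and CTTTGTT in 5.03%, and either of them in 8.06%. Of the 29 member windows, 4 held 1 of them: those of Wnt5b and Wnt11 held CTTTGAT, and those of Fzd7 and Dkk1 held CTTTGTT. The windows of Fzd7 and Wnt5b are printed because both genes set the partial clone apart, with Fzd7 lower there than on the other 15 arrays and Wnt5b higher. Capitals mark the motif, which in Fzd7 is on the opposite strand and begins 130 bases before the start (chr1:59481897-59482146, plus strand). In Wnt5b it begins 71 bases before a start that lies inside the annotated span of the gene (chr6:119449387-119449636, minus strand). A match is a description of the letters and no measure of binding.
Fzd7: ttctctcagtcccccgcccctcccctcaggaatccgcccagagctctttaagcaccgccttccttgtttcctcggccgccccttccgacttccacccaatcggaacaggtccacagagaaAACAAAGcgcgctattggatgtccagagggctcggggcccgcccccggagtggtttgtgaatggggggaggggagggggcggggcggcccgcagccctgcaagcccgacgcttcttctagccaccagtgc
Wnt5b: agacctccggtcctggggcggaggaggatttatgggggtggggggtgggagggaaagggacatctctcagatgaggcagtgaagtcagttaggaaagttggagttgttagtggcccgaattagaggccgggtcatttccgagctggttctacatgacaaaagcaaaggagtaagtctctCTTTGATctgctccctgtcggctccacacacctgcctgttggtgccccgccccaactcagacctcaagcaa

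The co-receptors changed little. Lrp6 had 9.41, 9.43 and 9.54 in the partial clone, 9.93, 9.70, 10.03, 10.02 and 9.94 in the established clones, and 9.82 through 10.09 to 10.60 in the cultures. It fell by 0.44 ± 0.081 in the partial clone relative to the established iPSC (limma adjusted p = 0.00339) and fell by 0.62 ± 0.078 in the established iPSC relative to early cultures (limma adjusted p = 8.51e-07). Lrp5 was at the floor on the 3 partial arrays, and had 5.94, 5.71, 5.86, 6.01 and 6.15 in the established clones and 5.87 through 6.21 to 6.80 in the cultures. Lrp5 was at least 1.22-fold lower in the partial clone than in the established iPSC (limma adjusted p = 0.017), and it fell by 0.61 ± 0.11 in the established iPSC relative to early cultures (limma adjusted p = 4.6e-05).

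Among the secreted antagonists, Sfrp2 had the widest range of any member, 7.68 over the 18 arrays. Sfrp2, a decoy that binds Wnt ligands, was at the floor on all 3 partial arrays and had 9.25 and 9.06 in OCK ko, 8.87 and 8.79 in OSK ko and 9.33 in OSK wt iPSC. In the cultures it ranged from 11.50 through 12.94 to 13.33, so the 3 states were fully apart. Sfrp2 was at least 10.7-fold lower in the partial clone than in the established iPSC (limma adjusted p = 1.76e-06), and its difference between established iPSC and early cultures was -4.03 ± 0.24 (limma adjusted p = 4.75e-11). Sfrp1, another decoy of the same family, had 8.82 (siTcf3-A), 8.72 (siTcf3-B) and 9.43 (siCtrl) in the partial clone, 10.99, 10.54, 10.06, 10.09 and 10.03 in the established clones, and 12.37 through 13.05 to 13.56 in the cultures. The order of the states was the same as for Sfrp2, without overlap, and the differences were -1.19 ± 0.12 (partial minus established, limma adjusted p = 0.000251) and -2.89 ± 0.22 (established minus early cultures, limma adjusted p = 9.69e-10). Sfrp4 had 6.20, 6.25 and 6.21 in the partial clone, 6.99, 6.97, 7.20, 7.24 and 7.07 in the established clones, and 6.86 through 7.95 to 8.62 in the cultures. It fell by 0.87 ± 0.063 in the partial clone relative to the established iPSC (limma adjusted p = 6.48e-05) and by 1.04 ± 0.26 in the established iPSC relative to early cultures (limma adjusted p = 0.00151). The established arrays lay below all 4 early cultures and above the ko culture of day 22 (6.86).

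Wif1, which binds Wnt ligands through its own domain, had the opposite pattern. It had 7.45 (siTcf3-A), 7.55 (siTcf3-B) and 8.50 (siCtrl) in the partial clone and was at the floor on the other 15 arrays, as were 0.218% of all genes. It was at least 4.56-fold higher in the partial clone than in the established iPSC (limma adjusted p = 5.63e-06). Wif1 was the only member with this pattern, and all 3 arrays come from the same clone.

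Dkk2 and Dkk3 were highest in the cultures. Dkk2 ranged there from 8.81 through 9.50 to just above 10 and was at the floor on all 8 clone arrays, at least 17.1-fold lower in the established iPSC than in early cultures (limma adjusted p = 3.82e-13). Dkk3, a family member not known to block the Lrp co-receptors as the others do, had 6.70, 6.80 and 7.07 in the partial clone, 6.70, 6.58, 6.44, 6.74 and 6.67 in the established clones, and 8.64 through 9.60 to 10.59 in the cultures. Dkk3 fell by 3.70 ± 0.16 in the established iPSC relative to early cultures (limma adjusted p = 9.25e-13), and partial and established arrays overlapped (difference 0.28 ± 0.097, limma adjusted p = 0.0454). On the other Dkk3 probe set they did not overlap, with 6.50, 6.69 and 6.99 in the partial clone and 5.74 to 6.14 in the established clones. Frzb, also named Sfrp3, ranged from 6.31 through 6.66 to 7.57 in the cultures and was at least 2.03-fold lower in the established iPSC than in early cultures (limma adjusted p = 5.39e-05). The other Frzb probe set was at the floor on all 18 arrays, so the result rests on a single probe set. Sfrp5 lay between 6.36 and 6.89 on the 18 arrays and passed in no comparison. Of the 22 calls between the partial clone and the established iPSC, those of Dkk3, Wnt6, Lrp5 and Fzd10 were lost without 1 or more of the arrays of OSK ko clone 1, OSK ko clone 2, siTcf3-A and siTcf3-B. Those of Dkk3, Fzd10, Fzd2 and Wnt9a were lost with the plain limma prior, and that of Lrp6 with averaged probe sets.

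**Figure D3:**
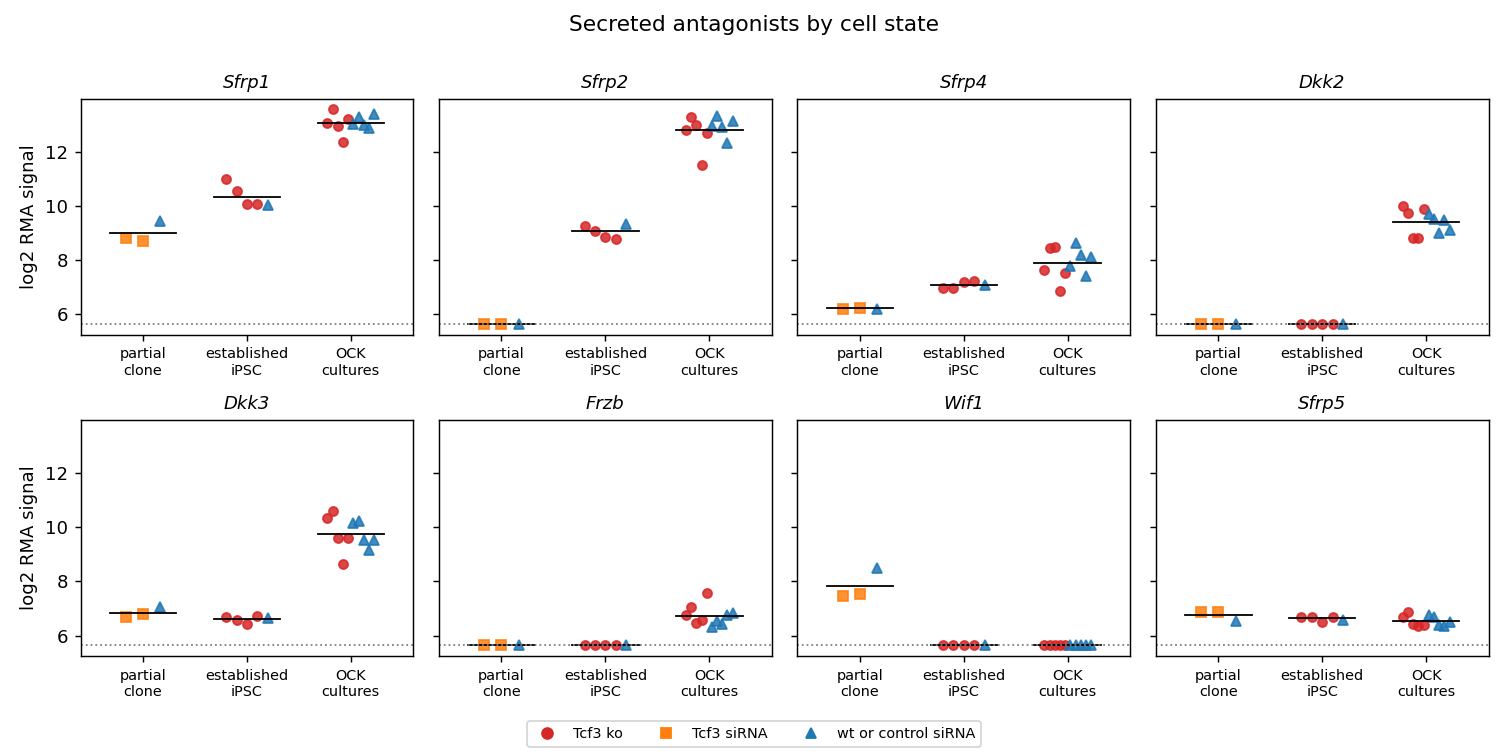
Log2 RMA signal (y axis) of the 8 secreted antagonists above the floor somewhere, on each array by state (x axis), with a line at the mean of the state and a dotted line at the floor. Sfrp2 sits at the floor in the partial clone and between 8.79 and 9.33 in established iPSC, while Wif1 is above the floor in the partial clone alone.

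Over days 11 to 26 of the OCK cultures, both genotypes together, 13 of 35 members tested had a slope that passed in a straight-line fit. Of these, 3 rose, beside 18% of all genes, and 10 fell, beside 18.7%. The median slope of the members was -0.018 per day (all genes tested: -0.0011). Fzd3 rose by 0.16 ± 0.023 log2 per day (SE, 10 arrays; limma adjusted p = 0.00409), or 2.42 over the 15 days. Its values were 6.57, 6.71, 7.60, 8.44 and 7.74 in ko cultures and 6.50, 7.09, 7.49, 8.56 and 9.77 in wt cultures on days 11, 15, 19, 22 and 26. The next probe set of Fzd3 stayed between 6.02 and 6.72 in the cultures. Fzd6 rose by 0.057 ± 0.017 (limma adjusted p = 0.0328) and Fzd5 by 0.034 ± 0.0097 per day (limma adjusted p = 0.0269), both by less than 1 over the 15 days; both calls were lost when probe sets were averaged.

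Wnt2 and Wnt9a fell during the same period, by 0.13 ± 0.019 (limma adjusted p = 0.00455) and 0.075 ± 0.018 per day (limma adjusted p = 0.0142). Wnt9a had 8.15, 8.09, 7.61, 6.77 and 7.13 in ko cultures and 8.09, 7.72, 7.99, 7.73 and 6.94 in wt cultures. Among the receptors Fzd2 fell by 0.090 ± 0.020, Fzd1 by 0.095 ± 0.030, Fzd4 by 0.070 ± 0.020 and Fzd8 by 0.053 ± 0.018 per day (limma adjusted p = 0.0128, 0.0375, 0.026 and 0.0469). The falls were not all steady, and linearity was not tested. Fzd1 had 11.68, 11.84, 10.49, 9.66 and 10.56 in ko cultures and 11.59, 11.52, 10.34, 10.39 and 10.85 in wt cultures. Lrp6 (-0.042 ± 0.013), Dkk3 (-0.077 ± 0.026), Wnt11 (-0.030 ± 0.0099) and Wnt10b (-0.032 ± 0.011) fell with limma adjusted p between 0.0405 and 0.0472. Sfrp1, Sfrp2 and Wnt5a did not pass. The fibroblast marker sum was 91783 to 92527 on day 11 and 49803 to 69294 on days 22 and 26, and the macrophage sum was 1927 to 1934 on day 11 and 474 to 1053 on days 22 and 26. Within the macrophage list Cd68 did not follow: it had 7.22 (ko) and 7.27 (wt) on day 11, and 8.98 (ko) and 7.10 (wt) on day 26. The keratinocyte sum was 2526 to 3587 on day 11 and 269 to 1014 on days 22 and 26, although Krt5 in that list did not fall (6.08 and 6.17, then 6.27 to 7.43). The pluripotency sum was 1852 to 1961 on day 11 and 9414 to 16807 on days 22 and 26, and the epithelial sum (6 markers) 3797 to 5052 and 8112 to 17752. Within the pluripotency list Esrrb and Zfp42 were at the floor in all wt cultures. In the epithelial list Krt8 rose little: 11.22 (ko) and 11.69 (wt) on day 11, 11.21 and 11.84 on day 22, and 12.44 and 11.62 on day 26. The part of these cell types in the slopes was not tested. When probe sets were averaged, the slopes of Fzd4, Fzd8 and Lrp6 no longer passed either. In a line through the 5 day means only Fzd3, Wnt2 and Wnt9a passed, and without the arrays of day 11 no member did (0 of all genes). Without day 15, 3 members passed, and 6 without day 19 or day 22. For the difference between the slopes of ko and wt cultures no member and no gene passed (0.00% of all genes called; limma, 208 at an unadjusted p under 0.05). Fzd3 (-0.11 ± 0.045) and Wnt16 (-0.083 ± 0.036 per day, ko minus wt) had the lowest unadjusted p-values among members, and both had a limma adjusted p of 1.

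**Figure D4:**
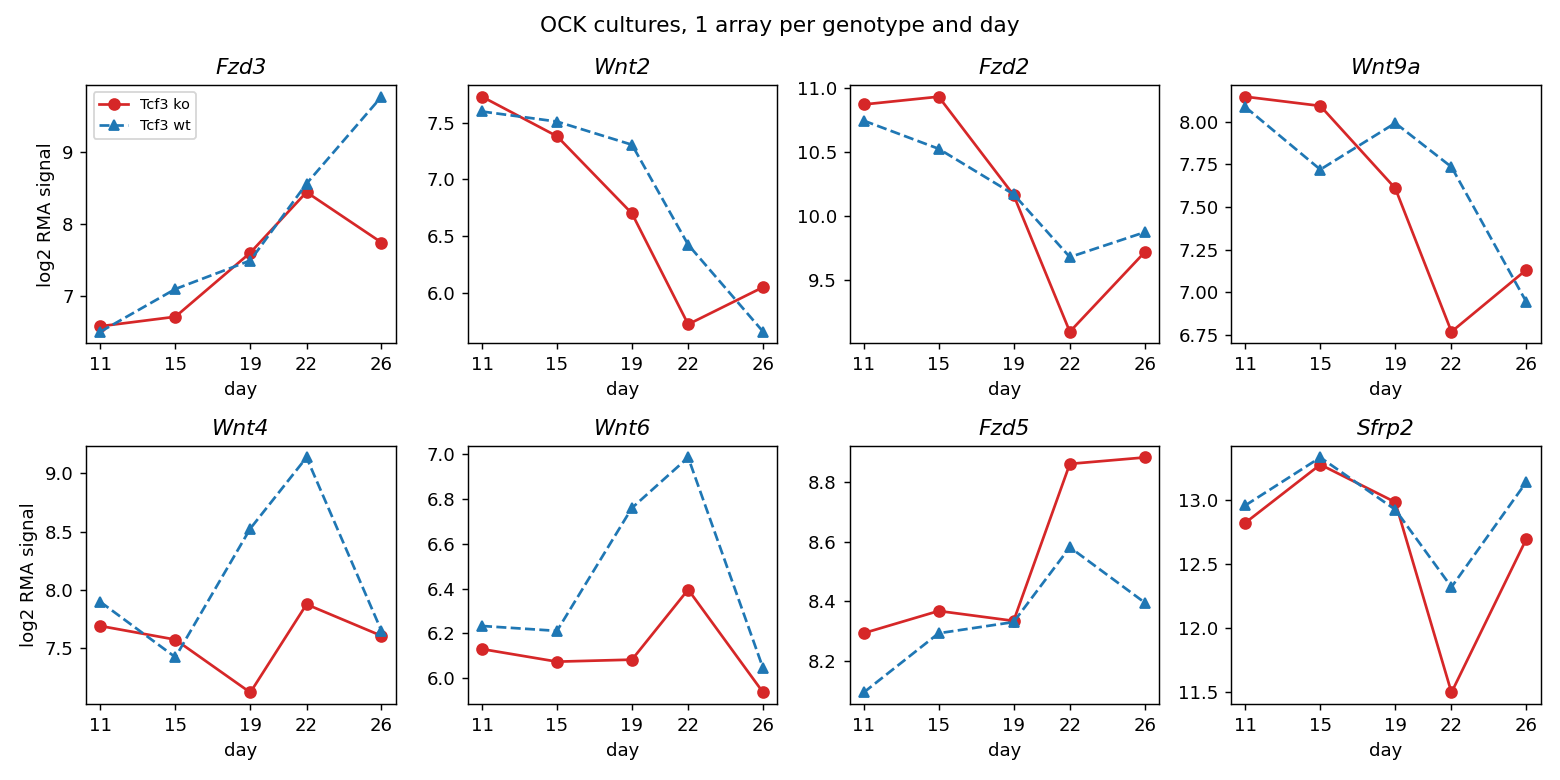
Log2 RMA signal (y axis, scaled per gene) on days 11 to 26 (x axis) of OCK cultures for 8 members, with 1 array per point, Tcf3 ko as circles and Tcf3 wt as triangles. The genotypes part most for Fzd3 on day 26 (ko 7.74, wt 9.77) and for Wnt4 on days 19 (ko 7.12, wt 8.53) and 22 (ko 7.88, wt 9.14).

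No member differed between Tcf3 ko and wt cultures with day as a block (0 of 35; 0.00% of all genes called, 452 genes at an unadjusted p under 0.05 in limma). The median difference of the members was -0.051 (all genes tested: 0.013), with 24 of 35 below 0. Since 1 array stood for each genotype and day, the days served as replicates, and a lasting difference between the cultures cannot be told apart from an effect of genotype. Wnt6 was lower in ko on 5 of 5 days, with 6.13, 6.07, 6.08, 6.40 and 5.94 in ko cultures and 6.23, 6.21, 6.76, 6.99 and 6.04 in wt cultures (difference -0.32 ± 0.11, limma adjusted p = 1). Fzd5 was higher in ko on 5 of 5 days, though by only 0.004 on day 19. It had 8.29, 8.37, 8.33, 8.86 and 8.88 in ko cultures and 8.09, 8.29, 8.33, 8.58 and 8.39 in wt cultures (difference 0.21 ± 0.081, limma adjusted p = 1). How many of all genes had the same direction on 5 of 5 days was not counted. Wnt4 differed by -0.55 ± 0.25, mostly on days 19 and 22, when another Wnt4 probe set had 6.76 and 7.27 in ko cultures, against 7.65 and 8.26 in wt cultures.

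The gap was largest on days 19 and 22 for Wnt4 and Wnt6, the days on which Wnt10a was above the floor in wt cultures only. Wnt6 and Wnt10a are neighbours on chromosome 1 with 0 coding genes between them. The R-spondin Rspo1, which strengthens Wnt signals at the receptor, was at 7.46 and 6.05 in wt cultures on these days and at the floor in the ko cultures. The summed linear signal of the 4 keratinocyte markers on these days was 890 and 269 in ko cultures, against 1905 and 1014 in wt cultures. That sum was also lower in ko on day 11 (2526, against 3587 in wt). It was higher in ko on day 15 (1076, against 726) and day 26 (600, against 327). Within the list, Krt5 and Lce1b were not lower in ko on day 19 (6.55 and 7.29, against 6.46 and 7.25 in wt). The direction of the members' differences was not the same on each day. On day 11, 18 of 35 members were higher in ko and 13 lower, and on day 15, 23 were higher and 10 lower (median 0.094; all genes 0.025). On day 19, 15 were higher and 16 lower, on day 22, 7 were higher and 26 lower (median -0.20; all genes 0.0), and on day 26, 14 were higher and 17 lower. On day 22 the fibroblast marker sum was 49803 in ko, against 60631 in wt. On day 26, when Fzd3 had 7.74 in ko and 9.77 in wt cultures, the sum of the 6 neural markers was 691 in ko and 6081 in wt cultures; Dcx and Elavl4 were at the floor in the ko culture. The part of these cell types in the differences was not tested.

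In the established OSK clones none of 30 members tested passed between ko and wt (0.687% of all genes called; limma, 1623 genes at an unadjusted p under 0.05), and the wt group was a single array, whose spread is taken to equal that of the groups of 2. Wnt7b had 7.49 and 7.63 in OSK ko clones, against 8.26 in OSK wt (difference -0.70 ± 0.11, limma adjusted p = 0.0643). Fzd2 had 7.91 and 7.96 in OSK ko clones, against 8.75 in OSK wt (-0.82 ± 0.19, limma adjusted p = 0.135). Both ko clones were lower than wt for these genes, but the differences did not pass over all genes. On the other Wnt7b probe set, near the floor, OSK wt (5.71) lay between the OSK ko clones (5.78 and 5.64). Sfrp2 (-0.50 ± 0.14) and Fzd5 (0.45 ± 0.15) were next, with limma adjusted p of 0.202 and 0.283.

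The ko clones made with OCK and with OSK differed in 4 of 29 members tested. Of these, 2 were higher in OCK ko clones (4.87% of all genes) and 2 lower (5.80% of all genes). Fzd5 had 9.35 and 9.65 in OCK ko clones, against 10.27 and 10.32 in OSK ko clones (-0.80 ± 0.12, limma adjusted p = 0.0157). Fzd4 had 5.86 and 6.02, against 6.85 and 6.55 in OSK ko (-0.77 ± 0.13, limma adjusted p = 0.0202). Fzd6 had 8.41 and 8.03, against 7.43 and 7.38 in OSK ko (0.81 ± 0.14, limma adjusted p = 0.0204). Sfrp1 had 10.99 and 10.54, against 10.06 and 10.09 in OSK ko (0.69 ± 0.16, limma adjusted p = 0.0442). The groups of 2 did not overlap for these 4 genes, which adds little, since the calls came from the same arrays. The share of all genes without overlap was not counted. All 4 calls were lost without either OSK ko clone. Without OCK ko clone 1 there were 8 calls and without OCK ko clone 2 there were 7, these 4 among them. When probe sets were averaged only Sfrp1 passed: its 3 other probe sets were also higher in both OCK ko clones than in both OSK ko clones. Another probe set of Fzd5 had 7.16 and 7.82 in OCK ko clones, against 7.60 and 7.78 in OSK ko clones. For Fzd6 and Fzd4 another probe set, near the floor, did not go the same way. That of Fzd6 had 5.77 and 5.80 in OCK ko clones, against 5.91 and 5.97 in OSK ko clones. That of Fzd4 had 5.80 and 5.64, against 5.64 and 5.64. Fzd7 had the widest difference, 9.28 and 9.83 in OCK ko clones against 10.58 and 10.58 in OSK ko clones (-1.02 ± 0.26), but did not pass (limma adjusted p = 0.0608).

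In the partial clone none of 29 members tested passed between siTcf3 and siCtrl (0.111% of all genes called; limma, 1602 genes at an unadjusted p under 0.05). Wif1 came closest, with 7.45 (siTcf3-A) and 7.55 (siTcf3-B), against 8.50 with siCtrl (-1.0 ± 0.14, limma adjusted p = 0.0865). Sfrp1 had 8.82 and 8.72 with siTcf3, against 9.43 with siCtrl (-0.67 ± 0.19, limma adjusted p = 0.243). Wnt5b had 7.37 and 7.20 with siTcf3, against 7.74 with siCtrl (-0.46 ± 0.14, limma adjusted p = 0.264). Both siRNAs gave lower values than the single control array for these 3 genes. The share of all genes with both siRNAs below the control was not counted. In a fit of the 3 partial arrays alone the spread came only from siTcf3-A and siTcf3-B, so its calls are not used here. The difference between the ko effect in OSK clones and the siTcf3 effect in the partial clone passed for none of 32 members tested (0.00% of all genes called; 1662 genes at an unadjusted p under 0.05 in limma). It was -0.89 ± 0.16 for Wnt7b (limma adjusted p = 0.143) and 1.0 ± 0.20 for Wif1 (limma adjusted p = 0.163), where Wif1 was at the floor in all OSK clones.

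Other genes of the pathway, 33 measured from a list of secretion factors, other receptors, R-spondins and their receptors, other inhibitors and transducers, were compared in the same fits. Of 28 tested between the partial clone and the established iPSC, 8 were higher (27.4% of all genes) and 9 lower (37.3% of all genes). Wls, which carries Wnt ligands to the cell surface, was 2.14 ± 0.13 higher in the partial clone (limma adjusted p = 3.01e-05), and the membrane inhibitor Apcdd1 2.39 ± 0.14 higher (limma adjusted p = 2.68e-05). Axin2, a feedback inhibitor and common readout of beta-catenin activity, fell by 1.27 ± 0.10 there (limma adjusted p = 9.05e-05). The secreted deacylase Notum, which inactivates Wnt ligands, fell by 2.32 ± 0.21 (limma adjusted p = 0.000158). Axin2 had 6.51, 6.51 and 6.35 in the partial clone, against 7.46, 7.80, 8.24, 8.35 and 7.16 in the established clones.

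Of 29 tested between established iPSC and early cultures, 8 were higher (41.0% of all genes) and 13 lower (33.0% of all genes). The R-spondin receptor Lgr5 and the R-spondins Rspo3 and Rspo2 were at the floor on all 5 established arrays, and Lgr5 ranged from 9.79 to 12.11 in the cultures. Wls fell by 3.25 ± 0.22 in the established iPSC (limma adjusted p = 2.42e-10), and Porcn, the enzyme that attaches the lipid to Wnt ligands, was 1.60 ± 0.33 higher (limma adjusted p = 0.000252). Over the days of the culture 1 of 29 rose (Znrf3, which removes Frizzled receptors from the surface), beside 18% of all genes, and 8 fell, beside 18.7%, Wls and Rspo2 among them. None of these calls held without the arrays of day 11 (0 of all genes). Between OSK ko and wt clones 2 of 24 passed: Tcf7l1 itself fell and Ror2, a receptor for Wnt5a, was higher by 1.31 ± 0.13 (limma adjusted p = 0.0228). Ror2 had 7.94 and 7.94 in OSK ko clones, against 6.63 in OSK wt, and 7.88 and 7.90 in the OCK ko clones. Beside them 0.687% of all genes were called, and both calls were lost without either OSK ko clone and in a fit of the 5 established arrays (0 genes). Between OCK ko and OSK ko clones Apcdd1 was higher and Lef1, Dvl1, Axin2 and Ptk7 were lower, 1 and 4 of 24, beside 4.87% and 5.80% of all genes. Over all genes, 8 calls were left without OSK ko clone 1 and 18 without OSK ko clone 2, of 1377. After siTcf3, Tcf7l1 fell (-1.15 ± 0.11, limma adjusted p = 0.0495) and no other of the 26 passed (0.111% of all genes called, 1 gene without siTcf3-A and 0 without siTcf3-B).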

How the data were processed

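Expression was measured on 18 arrays, 1 per sample, grouped by the labels. The deposited table holds log2 values per probe set that the authors made with RMA, per the submitters' processing notes, with version and settings not given in the sources used here. All columns have the same lowest value, 5.64 (log2 of 50), at 44.9% to 46.6% of its values, so levels below were set to a floor that no label names. Of 40508 probe sets, 31076 carried 1 gene symbol, 636 several and 8796 none listed. The 41 members have 75 probe sets, 23 members more than 1. Of the 75, 19 were at the floor on every array, among them the other probe set of Frzb, of Wnt9a and of Fzd10.

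All genes were tested in limma 3.58.1 (R 4.3.3) with Benjamini-Hochberg adjustment (threshold 0.05). The prior variance came from genes never at the floor in a fit, genes with a floored array were given at least that variance, and genes at the floor on all arrays compared were not tested. Cultures were fitted with day as a block, and lines with a slope per genotype; clones with a mean per group over 8 arrays (3 residual degrees of freedom); established iPSC and early cultures with a mean per state over 18 arrays. Folds marked "at least" set the brighter group's mean against the floor. The code was tested on simulated data.

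The members, gene lists and tests were chosen with earlier results of these data known. Values per array are given for members that passed in at least 1 comparison or had the largest range in their role; the rest are summarised. Alternatives were the plain limma prior, the mean of probe sets, median centring, genes above the floor only, leaving out arrays, other blocks and smaller fits. Precision is limited by the number of arrays.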

Additional observations from a re-analysis of the deposited data

How the results depend on the processing

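The number of members called moved most for the change per day in cultures, a fit of 10 arrays. For the change per day in cultures (13 members, 4921 genes) the plain limma prior gave 5 members and 3171 genes, a line through the day means 3 members and 424 genes, and averaged probe sets 9 members, without Fzd4, Fzd5, Fzd6, Fzd8 and Lrp6. Leaving out the arrays of a day gave 0 to 16 members and 0 to 5151 genes, with 0 without day 11 and 6 members without day 19 or day 22. For OCK ko against OSK ko clones (4 members, 1377 genes) the plain prior gave 1 member (Wnt3a) and 528 genes, and the mean of probe sets 1. Leaving out a clone gave 0 to 8 members and 8 to 3614 genes. Genes higher in OCK ko were 45.7% of the calls and 57.5% after median centring. Clone number as a replicate block gave 0 members and 142 genes; the numbers name separate clones, and same-numbered clones' deviations correlated at -0.171 over 10284 genes, which are not independent. For OSK ko against wt (0 members, 87 genes) the plain prior gave 1 member (Wnt16) and 123 genes, genes above the floor only 28 genes, and leaving out either OSK ko clone or a fit of the 5 established arrays 0 genes. For siTcf3 (0 members, 14 genes) the plain prior gave 1 member (Wif1) and 252 genes, and a fit of the 3 partial arrays 2 members and 412 genes. The other settings gave 0 to 8 genes. For the difference between the ko and siTcf3 effects the plain prior gave 2 members (Wif1, Wnt16) and 288 genes, against 0. For established iPSC against early cultures (22 members) genes above the floor only gave 14 members, since fewer were tested. No member's direction was reversed where it was called, and the cause of the other changes was not tested.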
